A study of Bos taurus with 52 samples.

Results

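The comparison described here is that between the endometrium of pregnant and of non-pregnant subfertile heifers. Its members are the 10 endometrium libraries whose titles begin with P-SF (pregnant) or NP-SF (non-pregnant), 5 of each, out of 52 libraries in the series, and each library carries the number of a different animal. All heifers of both groups had been classed as sub-fertile (SF), and the labels name no drug treatment, age or strain for them. P-SF endometrium was collected on day 17 of pregnancy. The sources used here do not give the day of the NP-SF samples, and pregnancy and day therefore cannot be told apart. The series also holds endometrium of high-fertile heifers (P-HF and NP-HF), which is used below only where the change in SF heifers is set beside theirs, as well as non-pregnant infertile heifers (NP-IF) and day 17 conceptuses.

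In cattle the conceptus elongates in the uterus during the weeks before attachment, and its trophoblast secretes interferon tau, a type I interferon found in ruminants. Interferon tau binds the receptor subunits IFNAR1 and IFNAR2 on endometrial cells and acts through the kinases JAK1 and TYK2 and factors such as STAT2 and IRF9, which switch on interferon-stimulated genes. It is known for restraining the endometrial oxytocin receptor and with it the pulses of prostaglandin F that would end the life of the corpus luteum.

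Reads were counted for 31651 named genes, of which 19606 passed the filter on low counts and were tested. The 10 libraries held 20.2 to 25.7 M reads and 23599 to 24224 detected genes. Levels are given as CPM, counts scaled to the size of each library, and changes as log2 fold changes of P-SF against NP-SF ± the standard error, so that a value of 1 is a doubling. Genes were called where edgeR's quasi-likelihood test gave an adjusted p below 0.05, and only called genes are said to have risen or fallen. Values in a sentence run from replicate 1 to replicate 5 of a group, where the number is only a name. The libraries carried the markers of endometrium. EPCAM, a surface protein of epithelium, was at 489.8 ± 93.7 CPM (SD, n = 5) in NP-SF and 529.8 ± 51.5 CPM in P-SF, and DCN, the stromal proteoglycan decorin, at 2945 ± 596 and 3245 ± 353 CPM. Conceptus transcripts were low in both groups. Of 22 listed trophoblast products 15 were in the table, and 11 of these stayed at or below 0.292 CPM in all 10 libraries and were not tested. Of the 4 tested 0 were called, with 1 higher at an unadjusted p under 0.05. The summed level of the products was 4.53 to 6.15 CPM in NP-SF and 4.74 to 7.70 CPM in P-SF. IFNT2, a gene of the interferon tau family, was at 2.29 ± 0.686 CPM in NP-SF and 2.63 ± 0.862 CPM in P-SF.

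P-SF replicate 5 lay apart from its group as a whole, and NP-SF replicate 5 stood out in its antiviral genes. On the first principal component of the 10 libraries (29.9% of the variance) P-SF replicate 5 was at 84.3, the other P-SF libraries at 11.1 to 19.9 and the NP-SF libraries at -45.1 to -19.0. Its score for ciliated cell markers (mean log2(CPM + 1) of the list) was 3.09, against 4.68 to 5.29 in the other P-SF libraries. NP-SF replicate 5 was at -19.0 on the first principal component, beside -21.1 and -21.6 in NP-SF replicates 2 and 3. It had the highest score for antiviral effectors among the NP-SF libraries, 5.38 against 4.42 to 4.60. The non-pregnant libraries of the other classes reached 5.55 in NP-IF and 5.02 in NP-HF.

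Pregnancy was accompanied by a change in 798 of 19606 genes (4.07%). Of these, 624 (3.18% of the genes tested) were higher and 174 (0.887%) lower in P-SF. The rises were also the larger changes: 342 genes rose and 16 fell at least 2-fold, 162 rose and 1 fell at least 4-fold, and the median fold was 2.15 for the risen and 1.47 for the fallen genes. In 766 genes (3.91%) all 5 P-SF libraries lay above all 5 NP-SF libraries, and in 325 (1.66%) they lay below. An unadjusted p under 0.05 in edgeR's test was reached by 3319 of the 19606 genes, in either direction. Counts of list members at that threshold, given below, are to be read beside this share. Over all genes tested 9464 changes were positive and 10142 negative. Members of a list were measured in the same 10 libraries and can vary together, so that counts of signs, given below, only describe the lists. P-SF replicate 5 was the highest P-SF library in 532 of the 624 risen genes and the lowest in 110 of the 174 fallen ones. Without it 425 genes were called, 375 higher and 50 lower, of which 368 and 48 were among the genes called with it. Whichever of the 10 libraries was left out, 359 of the 624 risen and 38 of the 174 fallen genes remained called. The other 265 and 136 lost their call in at least 1 such fit. In a bulk sample more cells of a type and more RNA per cell cannot be told apart, here and in all that follows. The plot of fold change against level shows large rises outnumbering large falls across the range of levels.

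**Figure D1:**
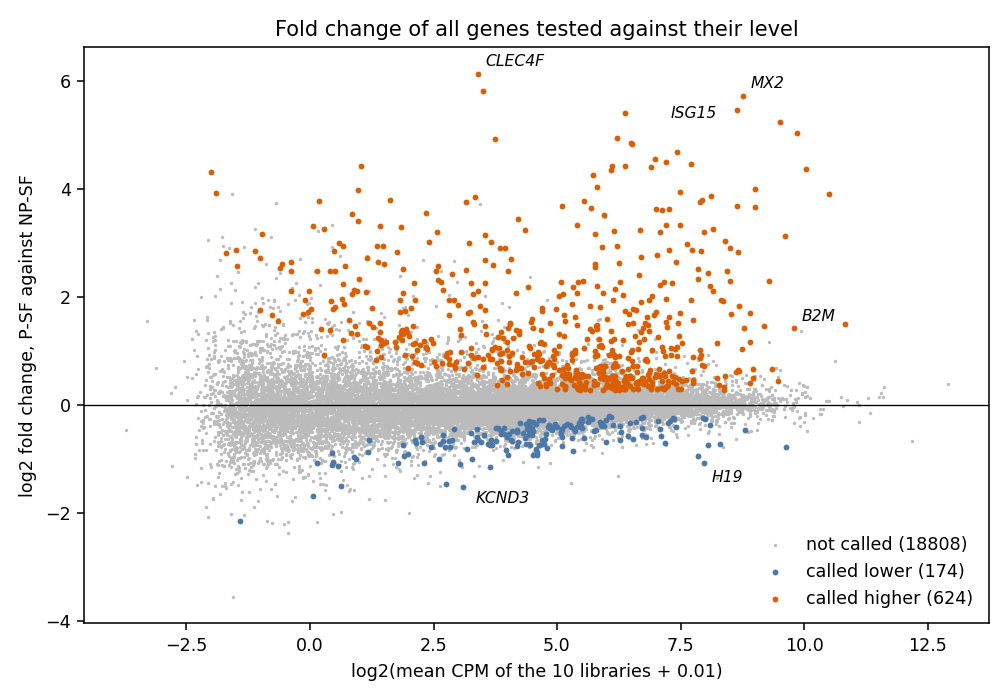
Log2 fold change of P-SF against NP-SF (vertical axis) for each of 19606 genes against its mean level in the 10 libraries (horizontal axis, log2 scale), with 624 genes called higher in orange, 174 called lower in blue and the rest in grey. Called rises reach 6.14 (CLEC4F), while among named falls KCND3 is at -1.53.

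The interferon receptor and its kinases were not among the called genes. IFNAR1 was at 61.4, 77.6, 74.2, 65.8 and 78.7 CPM in NP-SF and at 75.8, 79.6, 71.98, 72.5 and 76.5 CPM in P-SF, overlapping ranges with a change of 0.07 ± 0.12 (adjusted p = 0.82). IFNAR2, the other receptor subunit, was at 25.9, 37.96, 28.6, 32.4 and 33.2 CPM in NP-SF and 38.1, 40.4, 39.8, 39.9 and 41.4 CPM in P-SF. All 5 P-SF libraries of IFNAR2 lay above the NP-SF libraries, by a narrow margin, and the change of 0.34 ± 0.12 was not called (adjusted p = 0.13). JAK1 (0.02 ± 0.06) and TYK2 (-0.18 ± 0.06), the kinases bound to the receptor, were not called either, although every P-SF library of TYK2 lay below every NP-SF library.

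Downstream of the receptor several transcription factors rose. Of 19 tested genes of interferon signalling 10 were called higher, with a median change of 0.87 over the list beside -0.01 over all genes tested, and 8 without P-SF replicate 5. The lists of genes used here were drawn up with earlier results of these data known, so that their counts describe the change and lend it no independent weight. IRF9, the DNA-binding partner of STAT2, was at 27.4, 34.3, 31.00, 26.7 and 47.8 CPM in NP-SF and 237, 182, 202, 189 and 327 CPM in P-SF. The lowest pregnant library was 3.81-fold above the highest non-pregnant one, and the change was 2.77 ± 0.22 (adjusted p = 2.4e-08). IRF7, which amplifies interferon responses, went from 15.96, 19.4, 24.98, 33.5 and 38.6 CPM to 277, 192, 263, 213 and 395 CPM, a change of 3.34 ± 0.26 (adjusted p = 1.4e-08). STAT2 rose by 1.53 ± 0.18, IRF1 by 1.51 ± 0.18, IRF3 by 0.99 ± 0.12, and BATF2, a leucine zipper factor, by 2.91 ± 0.298. SOCS3 (1.24 ± 0.29), a feedback inhibitor of JAK kinases, and IRF8 (0.89 ± 0.22), a factor of myeloid and lymphoid cells, were called in all 10 libraries but not without P-SF replicate 5 (adjusted p = 0.073 and 0.070), and IRF8 not without NP-SF replicate 3 either. STAT3 was at 0.27 ± 0.18 and SOCS1 at 0.87 ± 0.31, neither called.

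ISG15 is a ubiquitin-like protein that is joined to other proteins, and the whole of its conjugation pathway rose: 7 of 7 tested members were called, with a median of 3.67, and all 7 remained called whichever of the 10 libraries was left out. ISG15 itself was at 4.66, 7.82, 5.91, 7.64 and 62.5 CPM in NP-SF and at 830.4, 431, 527, 613 and 1483 CPM in P-SF. The P-SF libraries lay far above the NP-SF ones, and NP-SF replicate 5, at 62.5 CPM, lay well above the other 4 non-pregnant libraries. The change of 5.46 ± 0.7004 (adjusted p = 1.1e-05) was 6.898 without that library. UBA7, the enzyme that activates ISG15, went from 30.03, 37.9, 24.9, 28.3 and 55.6 CPM to 521, 359, 394, 396 and 922 CPM (3.88 ± 0.34, adjusted p = 6.2e-08). USP18, which removes ISG15 from proteins and damps interferon signalling, went from 3.23, 5.43, 5.29, 5.34 and 13.1 CPM to 118, 70.3, 68.7, 86.05 and 188 CPM (4.04 ± 0.37, adjusted p = 7.3e-08). In both genes the 5 P-SF libraries lay above all NP-SF libraries, and P-SF replicate 5 was the highest. The conjugating enzyme UBE2L6 (1.66 ± 0.22) and the ligases HERC5 (2.65 ± 0.23), HERC6 (3.67 ± 0.35) and TRIM25 (1.40 ± 0.15) rose as well.

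**Figure D2:**
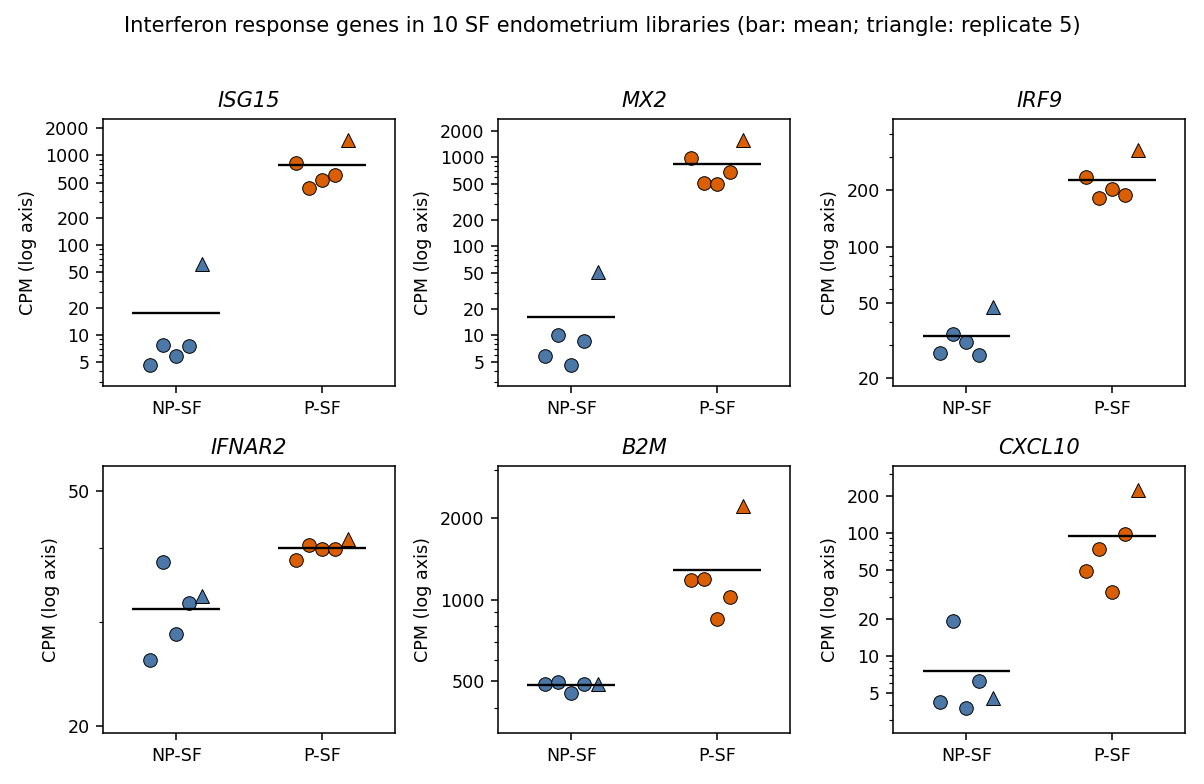
CPM on a log axis in the 5 NP-SF (blue) and 5 P-SF (orange) libraries for 6 genes, 1 point per library, with a bar at the group mean and a triangle for replicate 5 of each group. The groups do not overlap in any of the 6 genes, the gap is widest for ISG15 and MX2 and narrowest for IFNAR2, which was not called, and the NP-SF triangle stands above its group in ISG15 and MX2 but not in B2M or CXCL10.

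Antiviral effectors, the proteins that block viral entry, translation and replication, rose nearly as a whole. Of 37 tested members 35 were called higher, with a median of 3.24, and all 35 remained called whichever library was left out. MX2, a dynamin-like GTPase, was at 5.83, 10.2, 4.64, 8.54 and 51.4 CPM in NP-SF and 973, 518, 501, 687 and 1566 CPM in P-SF, a change of 5.73 ± 0.75 (adjusted p = 1.5e-05). RSAD2, or viperin, was at 18.96, 21.1, 13.1, 18.7 and 116 CPM and 1491, 711, 654, 1339 and 2904 CPM (5.25 ± 0.68, adjusted p = 1.4e-05). As for ISG15, NP-SF replicate 5 stood above the other non-pregnant libraries in both genes and still lay below every P-SF library. IFIT3, of the family that binds foreign RNA ends, was at 10.8, 11.1, 10.7, 9.31 and 22.3 CPM and 335, 164, 144, 268 and 739.9 CPM, with P-SF replicate 5 highest (4.69 ± 0.42, adjusted p = 6.7e-08). Its relatives IFIT1 (5.04 ± 0.66), IFIT2 (5.41 ± 0.61) and IFIT5 (2.48 ± 0.21) rose too. The 2-5A synthetases, which make an alarm signal when they meet double-stranded RNA, were among the largest rises, with OAS2 at 4.85 ± 0.57, OAS1X at 4.50 ± 0.56, OAS1Z at 4.55 ± 0.43 and OAS1Y at 3.99 ± 0.42. These OAS1 genes are close copies of each other, as are IFITM genes, and the assignment of reads among them is uncertain. The membrane proteins IFITM1 (3.22 ± 0.34), IFITM2 (3.79 ± 0.33) and IFITM3 (2.91 ± 0.22), which hinder viral entry, rose with them, as did the exonuclease ISG20 (4.93 ± 0.64) and IFI44L (4.46 ± 0.49). Without NP-SF replicate 5 the change was 6.87 for MX2, 6.30 for RSAD2 and 6.15 for IFIT1, and without P-SF replicate 5 it was 4.58 for IFIT2, 4.21 for OAS2 and 4.34 for ISG20. The members not called were OASL (0.97 ± 0.57) and SAMHD1, a nucleotide hydrolase, at 33.6 ± 6.14 CPM (SD, n = 5) in NP-SF and 32.8 ± 5.87 CPM in P-SF (-0.04 ± 0.14).

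CLEC4F had the largest fold change of the genes named by rule. It encodes a C-type lectin known from liver macrophages. CLEC4F was at 0, 0.0920, 0, 0.0854 and 1.35 CPM in NP-SF and 12.7, 10.03, 6.64, 11.74 and 62.2 CPM in P-SF. It was nearly undetected in 4 non-pregnant libraries, present in NP-SF replicate 5, and present in all pregnant libraries, with P-SF replicate 5 4.90-fold above the next. Its change was 6.14 ± 0.9001 (adjusted p = 7.1e-05), 8.73 without NP-SF replicate 5 and 5.13 without P-SF replicate 5, and limma-voom did not call it (adjusted p = 0.066). The 12 largest rises by the rule for named genes were CLEC4F and 11 interferon effectors already named. That rule passed over 3 genes with only a LOC name among the largest rises. Each of the 12 remained called whichever library was left out, beside 359 of all 624 risen genes.

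Most sensors of viral nucleic acid rose, while the adaptors behind them did not pass the test. Of 14 tested members 10 were called higher, with a median of 1.997, and 9 without P-SF replicate 5. IFIH1, also known as MDA5, a sensor of long double-stranded RNA, was at 36.8, 42.3, 38.3, 41.1 and 66.03 CPM in NP-SF and 377, 235, 225, 332 and 599.5 CPM in P-SF. The groups were far apart and the change was 2.98 ± 0.25 (adjusted p = 3.4e-08). DDX58, or RIG-I, rose by 3.69 ± 0.33, DHX58 by 3.21 ± 0.27, ZNFX1 by 2.84 ± 0.22, and the DNA sensors MB21D1 (cGAS), IFI16 and ZBP1 by 2.18 ± 0.26, 2.87 ± 0.301 and 4.42 ± 0.55 (5.21 for ZBP1 without NP-SF replicate 5). Among the adaptors MAVS was at 0.18 ± 0.11, TMEM173 (STING) at 0.18 ± 0.19, MYD88 at 0.33 ± 0.12 and TICAM1 at 0.23 ± 0.15. TLR3, a receptor of endosomal RNA, was called (0.64 ± 0.17) and lost its call without NP-SF replicate 3 or 5 or P-SF replicate 5, with an adjusted p of up to 0.14.

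Poly(ADP-ribose) polymerase genes divided in the same way. Of 14 tested genes of this family and its partner DTX3L 7 were called higher and remained so whichever library was left out. PARP9, an inactive polymerase that pairs with the ubiquitin ligase DTX3L, was at 65.1, 75.7, 80.3, 63.3 and 97.7 CPM in NP-SF and 403, 299.7, 301, 372 and 538 CPM in P-SF (2.32 ± 0.17, adjusted p = 1.2e-08), with no overlap. DTX3L rose by 2.86 ± 0.26, PARP14 by 3.03 ± 0.27, PARP12 by 2.45 ± 0.21 and PARP10 by 2.22 ± 0.20. PARP1, the main polymerase of DNA repair, was at -0.17 ± 0.06 and PARP4 at 0.008 ± 0.07, and the 7 members not called ranged from -0.21 to 0.51. Over the 5 lists named so far, from signalling to PARP genes, 69 of 91 tested genes were called higher. None was called lower by edgeR or limma-voom, 1 (TYK2) was lower by DESeq2, and 3 (PARP1, PARP16 and TYK2) lay lower at an unadjusted p under 0.05.

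Genes that load peptides onto MHC class I, which shows cell contents to cytotoxic T cells, rose less steeply. Of 18 tested members 12 were called higher, with a median of 0.81, and all 18 had positive changes. B2M, which encodes the light chain of MHC class I, was at 489, 498, 454, 489 and 488 CPM in NP-SF and 1177, 1192, 849, 1018 and 2208 CPM in P-SF. The NP-SF libraries lay within a narrow band and all P-SF libraries above it, with P-SF replicate 5 highest (1.41 ± 0.21, adjusted p = 7.3e-05). TAP1, a subunit of the peptide pump, was at 43.03, 47.1, 34.2, 45.5 and 51.5 CPM and 133, 129, 123, 117 and 249 CPM (1.76 ± 0.24, adjusted p = 1.9e-05), again without overlap. The immunoproteasome subunits PSMB8 (1.21 ± 0.20) and PSMB9 (1.43 ± 0.28) and the proteasome activators PSME1 (0.91 ± 0.13) and PSME2 (1.04 ± 0.11) rose. Among all 49 tested genes whose symbol begins with PSM, the proteasome subunits and their regulators, 14 were called higher. The share over all genes tested was 3.18%. Without P-SF replicate 5 the class I list had 7 called members in place of 12. TAP2, TAPBPL, PSMB10, BOLA-NC1 and ERAP1 were the 5 that lost their call, with adjusted p = 0.059, 0.081, 0.11, 0.15 and 0.16. The classical heavy chain genes, listed as BOLA (0.54 ± 0.45) and JSP.1 (1.36 ± 0.60), were not called, and reads of these polymorphic copies have uncertain assignment.

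MHC class II, which presents peptides from outside the cell to helper T cells, had 4 of 15 tested members called higher, 3 of them in all 10 fits with 1 library left out, with a median of 0.89 and positive changes in all 15. BOLA-DMB, a chain of the molecule that exchanges peptides, was at 28.9, 30.5, 31.5, 29.6 and 27.5 CPM in NP-SF and 64.3, 80.3, 77.99, 50.5 and 142 CPM in P-SF (1.49 ± 0.26, adjusted p = 0.00071). CTSS, the protease cathepsin S that prepares the groove for peptides, was at 145, 156, 145, 142 and 167 CPM and 239, 269, 228, 251 and 416 CPM (0.89 ± 0.15, adjusted p = 0.00033). Neither gene overlapped between the groups, and P-SF replicate 5 was highest in both. BOLA-DRA rose by 0.86 ± 0.19 and was not called without P-SF replicate 5 and NP-SF replicate 5 together (adjusted p = 0.084). CD74, the invariant chain, was called (0.65 ± 0.18, adjusted p = 0.039) but lost its call when any 1 library was left out other than NP-SF replicate 3 or P-SF replicate 4, with an adjusted p of up to 0.16. CIITA, the master regulator of class II genes, was at 0.99 ± 0.29 and not called (adjusted p = 0.053). BOLA-DQA and BOLA-DQB genes, which differ in copy number between animals, had standard errors of 0.62 to 1.28 and were not called.

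Of 22 tested chemokines 6 were called higher. CXCL10, which attracts T and natural killer cells and is a classical interferon target, was at 4.21, 19.1, 3.72, 6.23 and 4.54 CPM in NP-SF and 48.6, 73.97, 33.1, 97.4 and 222 CPM in P-SF. The highest non-pregnant library was here replicate 2 and not replicate 5, and all P-SF libraries lay above it (3.65 ± 0.65, adjusted p = 0.00085). CCL8, an attractant of monocytes, was at 0.448, 0.966, 0.882, 1.54 and 2.32 CPM and 18.4, 10.5, 12.4, 21.8 and 20.5 CPM, a change of 3.77 ± 0.42 (adjusted p = 1.4e-06). CCL2, which draws the same cells, was at 2.60, 2.07, 0.998, 2.43 and 0.870 CPM and 7.33, 7.199, 6.47, 8.96 and 4.38 CPM (1.93 ± 0.34, adjusted p = 0.00069). For CCL2 the P-SF library with the lowest level was replicate 5, which led the group in most risen genes, and the 2 groups still did not overlap. The change of CXCL10 was 3.07 without P-SF replicate 5 and 4.34 without NP-SF replicate 2. CXCL9 (3.15 ± 0.64) and CCL11 (2.47 ± 0.58) were called as well. CXCL9 was at 2.29 without P-SF replicate 5 and was not called without that library and NP-SF replicate 5 together (adjusted p = 0.064). CCL11 lost its call without P-SF replicate 5 (adjusted p = 0.062). CXCL11 (2.48 ± 0.701) lost its call when any 1 library was left out other than NP-SF replicate 2 or P-SF replicate 1, 3 or 4, with an adjusted p of up to 0.24. CXCL12, a constitutive stromal chemokine, was at 182 ± 23.9 CPM (SD, n = 5) in NP-SF and 187 ± 24.7 CPM in P-SF (0.04 ± 0.20).

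Complement had 8 of 20 tested members called higher, and these were components of the early classical pathway or, for SERPING1, its inhibitor. C2, the protease of the classical convertase, was at 2.20, 5.20, 3.68, 1.54 and 2.95 CPM in NP-SF and 19.04, 26.9, 13.4, 13.00 and 97.3 CPM in P-SF (3.44 ± 0.54, adjusted p = 0.00018). C4A, its cofactor, was at 94.3, 87.01, 85.3, 123 and 101 CPM and 358, 382, 369.8, 306 and 841 CPM (2.20 ± 0.39, adjusted p = 0.00080). In both genes P-SF replicate 5 stood far above the other pregnant libraries, which themselves lay above all NP-SF libraries, and without it the change of C2 was 2.54. The chains of C1q rose, C1QA by 1.31 ± 0.27, C1QB by 1.78 ± 0.297 and C1QC by 1.58 ± 0.304, although levels of C1QA and C1QC overlapped between the groups, and so did the proteases C1R (1.42 ± 0.26) and C1S (1.47 ± 0.27). SERPING1, their inhibitor, was called (1.01 ± 0.27) but not without NP-SF replicate 1, 3, 4 or 5 or P-SF replicate 5 (adjusted p of up to 0.17). Later steps were not called, with C3 at 0.54 ± 0.26, C5 at 1.19 ± 0.69 and C7 at -0.45 ± 0.33. CFB of the alternative pathway was at 1.88 ± 0.56 (adjusted p = 0.058), and the shields of host cells CD46, CD55 and CD59 were at 0.12 ± 0.086, 0.27 ± 0.20 and 0.15 ± 0.16. The median change of the list was 0.90 in all libraries and 0.37 without P-SF replicate 5.

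In the list of immune checkpoint and tolerance genes 6 of 17 tested members rose, and each of the 6 remained called whichever library was left out. CTLA4, LGALS9 and IL10 of this list stayed below 0.70 CPM in all 10 libraries and were not tested. IDO1, which breaks down tryptophan and thereby limits T cells, was at 2.24, 20.1, 1.92, 4.23 and 3.38 CPM in NP-SF and 66.6, 57.8, 36.95, 62.8 and 421 CPM in P-SF (4.35 ± 0.709, adjusted p = 0.00030). P-SF replicate 5 was 6.32-fold above the next pregnant library, and NP-SF replicate 2 was the highest of the non-pregnant ones. The change of IDO1 was 3.14 without P-SF replicate 5 and 5.46 without NP-SF replicate 2. WARS, the tryptophanyl-tRNA synthetase, was at 54.2, 78.6, 63.96, 62.2 and 62.99 CPM and 133, 149, 123, 125 and 302 CPM (1.37 ± 0.21, adjusted p = 0.00015). CD274, the ligand PD-L1 of the inhibitory receptor PDCD1, was at 1.26, 7.82, 2.69, 3.76 and 2.71 CPM and 29.7, 19.01, 14.7, 17.8 and 54.9 CPM (2.90 ± 0.44, adjusted p = 0.00012). Neither WARS nor CD274 overlapped between groups, and P-SF replicate 5 was highest in both. PDCD1LG2 (1.36 ± 0.26), the second ligand, PDCD1 itself (0.98 ± 0.21) and the death ligand TNFSF10 (1.94 ± 0.34) completed the 6. FOXP3, the factor of regulatory T cells, was at -0.18 ± 0.21 and TGFB1 at -0.16 ± 0.17, neither called.

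The list of cell death and lysosome genes had rises as well, with 13 of 24 tested members called higher and 11 without P-SF replicate 5. CASP4, an inflammatory caspase that senses bacterial lipopolysaccharide in the cytosol, was at 19.99, 27.7, 22.9, 23.3 and 24.2 CPM in NP-SF and 99.2, 83.8, 61.3, 75.7 and 173 CPM in P-SF (2.06 ± 0.24, adjusted p = 2.6e-06). PML, the organiser of nuclear bodies, was at 31.7, 29.2, 25.9, 30.6 and 42.3 CPM and 156, 119, 127, 147 and 298 CPM (2.41 ± 0.23, adjusted p = 2.1e-07). Both genes separated the groups fully. MLKL, which perforates the membrane in necroptosis, rose by 2.13 ± 0.28, RIPK3, which acts upstream of it, by 0.82 ± 0.18, and CASP8 by 0.97 ± 0.16. The death receptor FAS rose by 0.84 ± 0.19, and BAX, which opens the mitochondrial membrane, was at 0.32 ± 0.15 and not called.

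**Figure D3:**
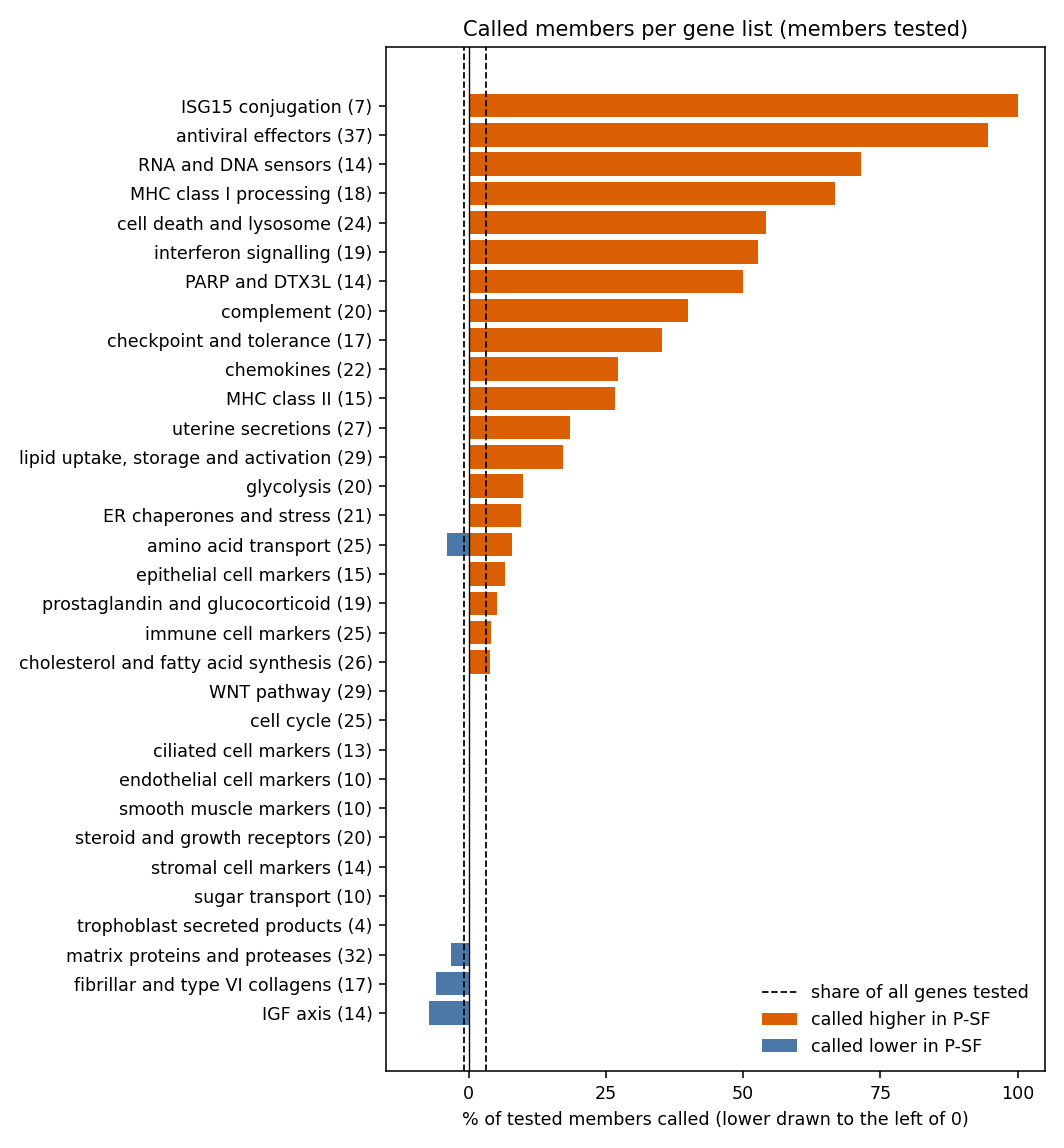
Percent of the tested members of each gene list called higher in P-SF (orange, to the right) or lower (blue, to the left), for lists with at least 4 tested members, whose number stands in brackets. Dashed lines mark the shares of all genes tested that were called higher (3.18%) and lower (0.887%); interferon lists lie far to the right, and each list of cell type markers, matrix genes or receptors has 0 or 1 called member.

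Outside immunity, lipid handling held a few called genes. Of 29 tested genes of lipid uptake, storage and activation 5 were called higher, with a median of -0.03, and 2 without P-SF replicate 5. PLIN2, a coat protein of lipid droplets, was at 46.7, 53.1, 43.01, 46.7 and 51.3 CPM in NP-SF and 83.7, 72.1, 75.5, 86.9 and 141 CPM in P-SF (0.93 ± 0.15, adjusted p = 0.00035). ACSL5, which couples fatty acids to coenzyme A, was at 39.98, 43.5, 44.9, 43.2 and 44.7 CPM and 63.7, 64.8, 57.00, 66.2 and 94.7 CPM (0.68 ± 0.11, adjusted p = 0.00029). These were the 2 that remained called, and in both the groups did not overlap. FABP3, a cytosolic fatty acid carrier, was at 12.8, 11.96, 17.2, 4.78 and 32.4 CPM and 59.01, 59.6, 52.96, 38.3 and 257 CPM (2.56 ± 0.68, adjusted p = 0.030). All P-SF libraries lay above the NP-SF ones, but the P-SF mean rested on replicate 5, at 257 CPM. Without it the change was 1.73 and not called (adjusted p = 0.19), and the call was also lost without any one of NP-SF replicates 1 to 4. ACSS2 (0.99 ± 0.26), an acetyl-CoA synthetase, lost its call without NP-SF replicate 2, 3 or 4 or P-SF replicate 2, 4 or 5 (adjusted p of up to 0.096).

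In cholesterol and fatty acid synthesis 21 of 26 tested genes had positive changes, with a median of 0.45, and 1 was called in all 10 libraries and 0 without P-SF replicate 5. The share called in all 10 libraries was 3.85%, beside 4.07% of all genes tested. SQLE and FDPS, enzymes of the sterol route, were at 0.72 ± 0.22 and 0.58 ± 0.17, and SCD, which desaturates fatty acids, at 0.97 ± 0.32, and none of these 3 was called. At an unadjusted p under 0.05 there were 13 higher genes in this list, and DESeq2 called 6.

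In sugar transport edgeR called 0 of 10 genes, with 2 higher and 1 lower at an unadjusted p under 0.05 and 0 called by DESeq2 or limma-voom. SLC2A1, the main glucose transporter, was at 149, 209, 179.9, 77.7 and 302 CPM in NP-SF and 312, 349, 302, 267 and 507 CPM in P-SF. The ranges met at NP-SF replicate 5 and P-SF replicates 3 and 4, and the change was 0.92 ± 0.38 (adjusted p = 0.20). SLC5A1, the sodium-coupled glucose transporter, was at 0.87 ± 0.33 (adjusted p = 0.16). Of 25 genes of amino acid, peptide and mitochondrial carriers SLC15A3 (2.19 ± 0.33), a lysosomal carrier of histidine and peptides, and SLC25A28 (0.81 ± 0.16), a mitochondrial iron carrier, rose. SLC7A6 fell by 0.43 ± 0.11 on the log2 scale and lost its call when any 1 library was left out other than NP-SF replicate 3 or 5 or P-SF replicate 3 or 4 (adjusted p of up to 0.10). Of all 307 tested genes whose symbol begins with SLC 5 were called higher and 3 lower, beside 3.18% and 0.887% of all genes.

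Products secreted into the uterine lumen had 5 of 27 tested members called higher, and 3 of them remained called whichever library was left out. LGALS3BP, a secreted glycoprotein that binds galectins, was at 71.1, 62.9, 77.97, 68.2 and 98.4 CPM in NP-SF and 212, 173, 197, 241 and 347 CPM in P-SF (1.63 ± 0.19, adjusted p = 2.3e-06). PLAC8, named for its level in placenta, was at 4.93, 5.71, 11.4, 6.96 and 9.23 CPM and 60.3, 57.04, 53.04, 66.6 and 147 CPM (3.32 ± 0.39, adjusted p = 2.5e-06). Both separated the groups, and CTSS, given above, is the other of the 3. MUC16, a large mucin of the luminal surface, was at 17.5, 24.3, 27.7, 38.6 and 53.3 CPM and 100.4, 112, 101, 138 and 35.98 CPM (1.60 ± 0.41, adjusted p = 0.025). P-SF replicate 5, the library with low ciliated markers, had 35.98 CPM, within the range of NP-SF, while the other 4 P-SF libraries lay above every NP-SF library. Whether the level of MUC16 in that library has to do with its ciliated markers was not tested. The call of MUC16 was lost without NP-SF replicate 1, 2 or 3 or P-SF replicate 4 (adjusted p of up to 0.084). STC2 (1.46 ± 0.38), a secreted glycoprotein hormone, lost its call without NP-SF replicate 2, 4 or 5 or P-SF replicate 1 or 2 (adjusted p of up to 0.079). SERPINA14, uterine serpin, was at 3.54, 8.24, 10.6, 3.16 and 9.67 CPM and 28.3, 29.2, 25.1, 11.8 and 88.4 CPM, without overlap and with a wide spread, and it was not called in edgeR's fit of all 25 endometrium libraries (2.37 ± 0.77, adjusted p = 0.088). DESeq2 (adjusted p = 0.031) and edgeR on the 10 SF libraries alone (adjusted p = 0.032) called SERPINA14. GRP, gastrin-releasing peptide, was at 1142 ± 421 CPM (SD, n = 5) and 2007 ± 530.3 CPM (0.81 ± 0.28, adjusted p = 0.11).

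None of 20 tested steroid and growth factor receptors was called by edgeR, DESeq2 or limma-voom. At an unadjusted p under 0.05 there were 3 higher, beside 3319 of all 19606 genes in either direction. OXTR, the oxytocin receptor whose restraint is the known endpoint of interferon tau, was at 6.28, 9.80, 8.75, 17.8 and 3.87 CPM in NP-SF and 5.32, 6.21, 8.05, 3.90 and 3.99 CPM in P-SF. NP-SF replicate 4 was the highest library and NP-SF replicate 5 the lowest, the groups overlapped, and the change was -0.76 ± 0.48 (adjusted p = 0.46). ESR1, the estrogen receptor, was at 5.20, 10.8, 6.98, 10.9 and 9.04 CPM and 6.93, 7.10, 9.32, 6.27 and 5.35 CPM (-0.29 ± 0.19, adjusted p = 0.46). PGR, the progesterone receptor, was at 4.12, 7.36, 6.37, 6.91 and 5.70 CPM and 7.73, 3.87, 7.71, 5.06 and 9.77 CPM (0.16 ± 0.26, adjusted p = 0.82), and it overlapped as well. In the prostaglandin and glucocorticoid list 1 of 19 genes was called, PTGIR, the prostacyclin receptor (1.32 ± 0.301), and it was lost without P-SF replicate 5 (adjusted p = 0.056). The share called in that list was 5.26%, beside 4.07% of all genes tested. PTGS2, the inducible cyclooxygenase, was at 113 ± 22.2 CPM (SD, n = 5) and 159 ± 43.8 CPM (0.49 ± 0.24, adjusted p = 0.29).

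Of the 12 largest falls by the rule for named genes, 4 remained called whichever library was left out, beside 38 of all 174 fallen genes. H19, a maternally expressed non-coding RNA, was at 452, 305, 365, 324 and 249 CPM in NP-SF and 191, 156, 143, 130.0 and 184 CPM in P-SF. Every P-SF library lay below every NP-SF library, P-SF replicate 5 lay within its group, and the change of -1.08 ± 0.25 (adjusted p = 0.010) remained called whichever library was left out. IGF2, the imprinted growth factor gene beside it, was at 666, 698, 654, 503 and 492 CPM and 495, 483, 496, 389.5 and 661 CPM, overlapping, and was not called (-0.25 ± 0.15, adjusted p = 0.43). ST8SIA2, which adds polysialic acid to surface proteins, was at 14.97, 9.06, 7.67, 10.5 and 6.96 CPM and 3.35, 3.62, 5.70, 3.90 and 1.17 CPM (-1.47 ± 0.3004, adjusted p = 0.0039). FBN2, the microfibril protein fibrillin-2, was at 24.03, 27.3, 21.3, 16.6 and 16.7 CPM and 11.2, 8.19, 11.1, 12.3 and 12.6 CPM (-0.94 ± 0.22, adjusted p = 0.012). Like H19, both separated the groups in all libraries and remained called, and P-SF replicate 5 was the lowest library for ST8SIA2 and the highest P-SF library for FBN2.

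The other 8 of the 12 largest falls lost their call in at least 4 of 10 fits with 1 library left out. KCND3, a potassium channel, was at 16.1, 11.00, 12.3, 14.6 and 9.91 CPM in NP-SF and 5.72, 1.79, 5.24, 7.80 and 1.56 CPM in P-SF. The groups did not overlap, P-SF replicates 2 and 5 were the lowest, and the change of -1.53 ± 0.42 (adjusted p = 0.036) lost its call when any 1 library was left out other than NP-SF replicate 5 or P-SF replicate 3 or 4, with an adjusted p of up to 0.12. CD93, an endothelial and myeloid surface protein, was at 35.4, 33.5, 27.4, 41.1 and 20.3 CPM and 12.5, 25.5, 18.9, 14.1 and 11.4 CPM (-0.94 ± 0.27, adjusted p = 0.049), and lost its call when any 1 library was left out other than NP-SF replicate 5 or P-SF replicate 2 (adjusted p of up to 0.16). TMEM130 and ENOX1, at -1.005 ± 0.26 and -1.0004 ± 0.28, lost theirs in 6 and 7, and MDGA2, an adhesion protein of neurons, at -1.10 ± 0.28, in 4. For each of these 5 genes P-SF replicate 5 was the library whose removal raised the adjusted p the most among the 10, and the value without it was 0.12, 0.16, 0.10, 0.12 and 0.098. The remaining 3, COL26A1, COL5A3 and COL23A1, were collagens.

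Collagens leaned towards lower levels in P-SF. Of 17 fibrillar and type VI collagen genes and their associates 16 had negative changes, with a median of -0.36, yet 1 was called by edgeR, COL5A3, a chain of type V collagen. COL5A3 was at 408, 355, 231, 312 and 227 CPM in NP-SF and 151, 215, 196, 149 and 81.97 CPM in P-SF, with P-SF replicate 5 lowest and no overlap (-0.95 ± 0.24, adjusted p = 0.022). Its call in edgeR was lost without P-SF replicate 1 or 5 or NP-SF replicate 1 or 2 (adjusted p of up to 0.080). COL3A1, the chief collagen of loose stroma beside type I, was at 6345, 7313, 5507, 4589 and 5013 CPM and 3194, 4154, 3963, 4454 and 2298 CPM. All P-SF libraries of COL3A1 lay below all NP-SF libraries, by a narrow margin, and the change was not called (-0.67 ± 0.24, adjusted p = 0.12). COL1A1 was at 1338, 1136, 1205, 907 and 1107 CPM and 639, 1052, 977, 1000.0 and 886 CPM, overlapping (-0.32 ± 0.24, adjusted p = 0.54). COL5A1 (-0.77 ± 0.23) and COL11A1 (-1.33 ± 0.39), partners of COL5A3 in fibrils, had adjusted p values of 0.055 and 0.054. By symbol, 4 of 44 tested COL genes were called lower, beside 0.887% of all genes tested, and none higher. The 4 were COL5A3, COL7A1 (-0.72 ± 0.16), the anchoring fibril collagen, COL23A1 (-0.93 ± 0.26) and COL26A1 (-1.15 ± 0.299). COL26A1 lost its call without NP-SF replicate 1 or 2 or P-SF replicate 2, 4 or 5, and COL23A1 when any 1 library was left out other than NP-SF replicate 1 or P-SF replicate 2 (adjusted p of up to 0.13 and 0.13), while COL7A1 remained called in all 10 fits. In the list of other matrix proteins and proteases FBN2 was the 1 of 32 that was called (3.1%, beside 4.07% of all genes tested). FN1, fibronectin, was at 0.20 ± 0.17, SPARC at -0.27 ± 0.19, MMP2 at -0.28 ± 0.22 and TIMP2, an inhibitor of metalloproteinases, at 0.65 ± 0.27.

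**Figure D4:**
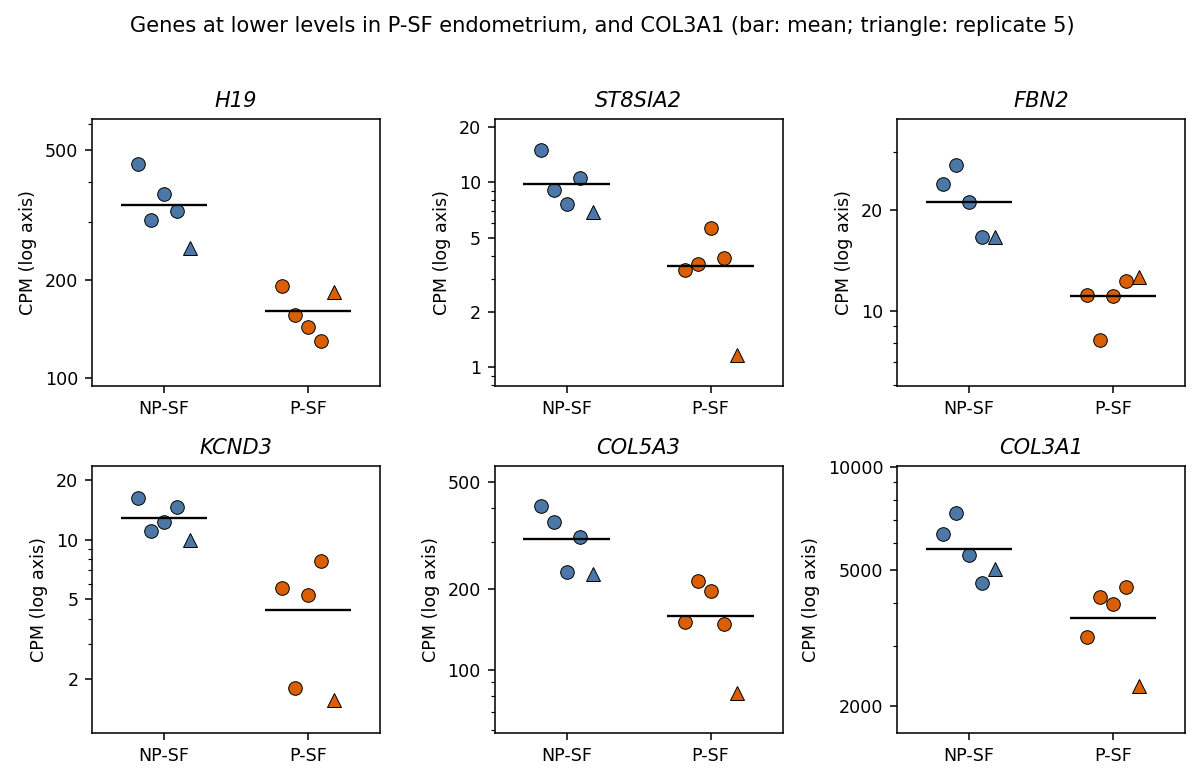
CPM on a log axis in the 5 NP-SF (blue) and 5 P-SF (orange) libraries for 5 genes called lower and for COL3A1, which was not called, 1 point per library, with a bar at the group mean and a triangle for replicate 5 of each group. P-SF replicate 5 lies inside its group for H19, is the highest P-SF library for FBN2 and is the lowest library for ST8SIA2, KCND3, COL5A3 and COL3A1.

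Stromal, ciliated, endothelial and smooth muscle markers had 0 of 14, 13, 10 and 10 tested genes called by edgeR, and 0 by DESeq2 and by limma-voom without library weights. At an unadjusted p under 0.05 there were 1 higher and 2 lower stromal, 3 lower endothelial, 2 lower smooth muscle and 0 ciliated genes. Over all genes tested that threshold was reached by 3319 of 19606, in either direction. Medians were -0.01 for stromal, -0.07 for endothelial, -0.34 for smooth muscle and -0.09 for ciliated markers. Of the 10 smooth muscle markers 9 had negative changes, and their median without P-SF replicate 5 was -0.505. The summed level of the 14 stromal markers ranged from 11307 to 16865 CPM in NP-SF and from 10272 to 12909 CPM in P-SF, and that of the 10 smooth muscle markers from 552.9 to 1087 CPM and from 477.7 to 970.6 CPM. The collagen COL3A1, given above, is among the stromal markers and has the lowest change of that list (-0.67). COL3A1 holds a large part of the stromal sum, which therefore does not measure stroma apart from that gene. Of 15 epithelial markers 14 had positive changes (median 0.11) and CDH1, the adhesion protein E-cadherin, was called (0.48 ± 0.14, adjusted p = 0.047). CDH1 lost its call when any 1 library was left out other than NP-SF replicate 5 or P-SF replicate 3 (adjusted p of up to 0.14). The summed level of epithelial markers ranged from 1237 to 1924 CPM in NP-SF and from 1739 to 2109 CPM in P-SF.

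Immune cell markers had 1 of 25 tested genes called, AIF1, a protein of macrophages (0.93 ± 0.18, adjusted p = 0.0027). That is 4.0%, beside 4.07% of all genes tested. The summed level of the immune cell markers ranged from 172.3 to 204.5 CPM in NP-SF and from 209.3 to 287.6 CPM in P-SF, without overlap. At an unadjusted p under 0.05, 7 of these markers were higher. PTPRC, the common leukocyte antigen CD45, was at 32.02 ± 6.49 CPM (SD, n = 5) and 42.7 ± 7.37 CPM (0.42 ± 0.15, adjusted p = 0.15), CD3E of T cells at 0.33 ± 0.28 and CD14 of monocytes at 0.28 ± 0.22. The part of immune cell number in the rises of class II, chemokine and complement genes was not tested. Cell cycle genes had 0 of 25 members called by edgeR, with 3 higher and 2 lower at an unadjusted p under 0.05, 1 higher and 1 lower by DESeq2 and 0 by limma-voom. In WNT signalling 0 of 29 genes were called by any of these tools, with 1 higher and 1 lower at an unadjusted p under 0.05. The list of endoplasmic reticulum chaperones and stress genes had 2 of 21 called, MANF (0.57 ± 0.13), a protein secreted under stress of that compartment, and ATF4 (0.28 ± 0.07), a stress transcription factor, and glycolysis 2 of 20, PGK1 (0.52 ± 0.14) and PFKP (0.56 ± 0.15). These shares were 9.52% and 10.0%, beside 4.07% of all genes tested, and rest on few genes. Without P-SF replicate 5 ATF4, PGK1 and PFKP were not called (adjusted p = 0.078, 0.15 and 0.16). ATF4 also lost its call without NP-SF replicate 4, and PGK1 without NP-SF replicate 1, 2 or 4. PFKP lost its call without P-SF replicate 1 or NP-SF replicate 1, 2, 4 or 5 as well. On the 10 SF libraries alone edgeR called none of ATF4, PGK1, PFKP and MANF (adjusted p = 0.060 for MANF).

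**Figure D5:**
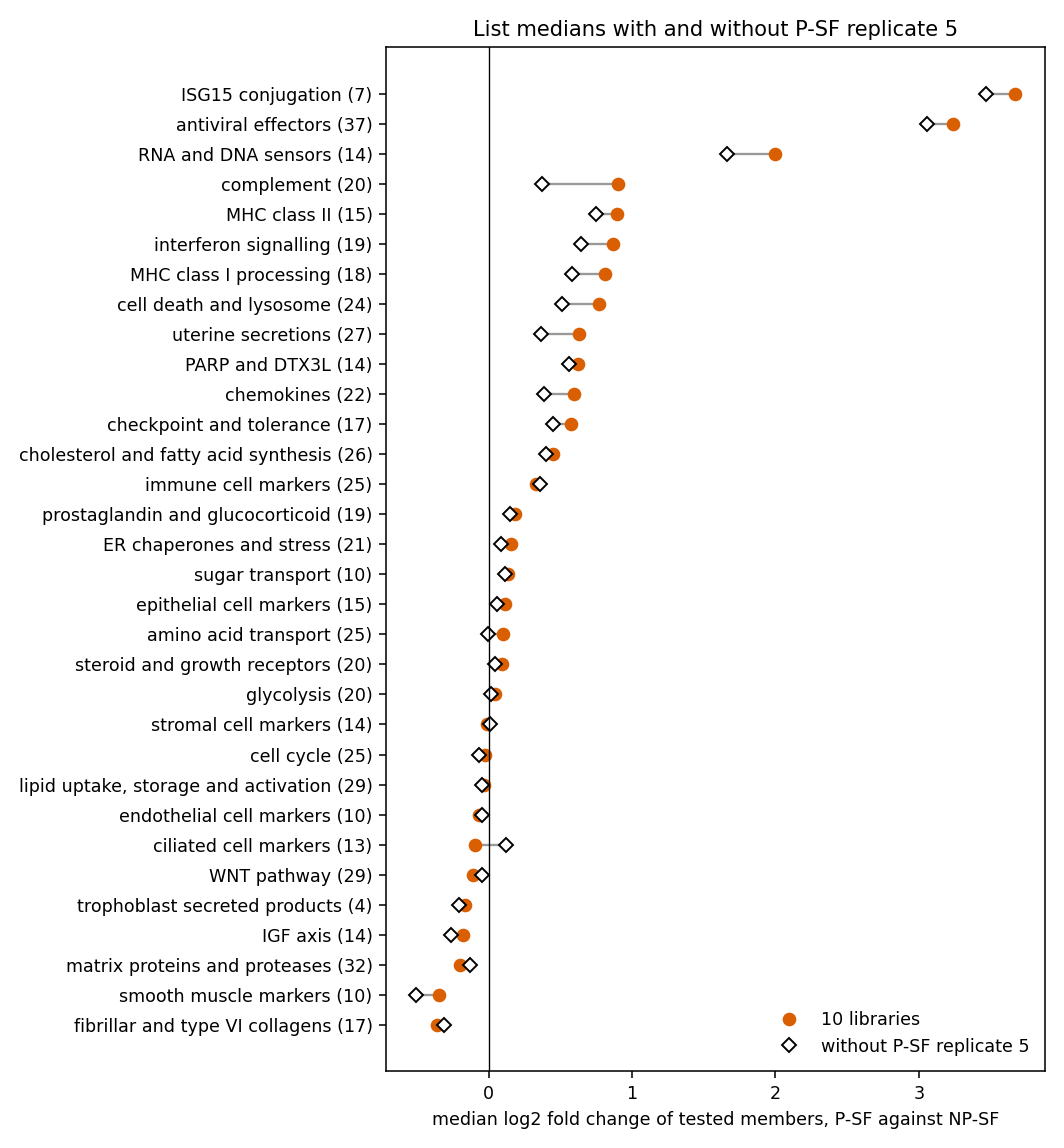
Median log2 fold change of the tested members of each list in all 10 libraries (filled orange circle) and without P-SF replicate 5 (open diamond), for lists with at least 4 tested members, whose number stands in brackets. Medians of ISG15 conjugation and antiviral effectors move little (3.67 to 3.47 and 3.24 to 3.06), that of complement falls from 0.90 to 0.37, and that of ciliated cell markers changes sign, from -0.09 to 0.12.

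The change with pregnancy in SF heifers was set beside that in HF heifers (P-HF against NP-HF, 5 libraries each, of other animals) by testing the difference between the changes. Of 19606 genes 1 was called (0.0051%), CILP, a matrix protein of cartilage and other connective tissue. CILP was at 5.24, 5.57, 4.76, 4.82 and 5.85 CPM in NP-SF and 5.36, 5.56, 6.002, 6.54 and 4.57 CPM in P-SF, so that its level in SF heifers overlapped between the states. In HF heifers it was at 6.74 to 11.01 CPM without and 2.93 to 4.36 CPM with pregnancy, and the change in SF exceeded that in HF by 1.38 ± 0.22 (adjusted p = 0.041). The call was lost without any one of the P-SF replicates 1 to 4 or of the NP-SF replicates, and limma-voom called 0 genes while DESeq2 called 3. All 624 risen genes had a positive change in HF heifers too, and 173 of the 174 fallen genes a negative one. The same count was not made over all genes tested. The change was larger in SF than in HF heifers for 186 of the risen (29.8%) and 55 of the fallen genes (31.6%). The median change of antiviral effectors was 3.24 in SF and 3.47 in HF heifers, and that of MHC class I genes 0.81 and 0.98. MHC class II genes went the other way, with medians of 0.89 in SF and 0.37 in HF heifers. Their change was higher in SF than in HF for 13 of 15 genes, with 0 called. Collagens had a median of -0.36 in SF and -1.03 in HF heifers, and stromal markers -0.01 and -0.43. At an unadjusted p under 0.05 the change differed between the classes in 10 of 17 collagens and 6 of 14 stromal markers, beside 1336 of all 19606 genes. Collagen genes such as COL3A1 are also among the stromal markers, so that these counts are not independent of each other. COL1A1 was at -0.32 ± 0.24 in SF and -1.63 ± 0.24 in HF, a difference of 1.303 ± 0.34 (adjusted p = 0.46), and MUC16 at 1.60 ± 0.41 and 0.19 ± 0.40, a difference of 1.40 ± 0.57 (adjusted p = 0.65). OXTR was at -0.76 ± 0.48 and -2.90 ± 0.501, a difference of 2.14 ± 0.68 (adjusted p = 0.61), beside NP-HF levels of 11.4 to 103 CPM. None of these passed the threshold, which does not show that the classes responded alike.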

How the data were processed

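The deposited table holds whole-number read counts per gene made by the authors, and its values were used as raw counts. HISAT2, StringTie, edgeR and the UMD3.1 genome are named in the submitters' processing notes, with no versions or roles. RNA came from endometrium and libraries from a stranded mRNA kit, per the labels' protocols, and whether counting used strand is not stated there. All 31651 named genes were kept, 1020 lines without a gene name were left out, and 0 columns lacked a sample. From the 25 endometrium libraries in 5 groups genes passing edgeR's filterByExpr (minimum count 10, total 15) were scaled by TMM and fitted with edgeR 4.0.16 (quasi-likelihood, in R 4.3.3), with Benjamini-Hochberg adjustment over 19606 genes. The standard error is the log2 fold change over the square root of F. The contrasts were P-SF minus NP-SF and the difference between that change and P-HF minus NP-HF. Scripts were tested on simulated data. Alternatives used DESeq2 1.42.0, limma 3.58.1, other filters and scaling, and libraries left out, each P-SF and NP-SF library in turn. Depth bounds precision for low genes, and replicate pairs differed by more than counting noise.

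Named genes were the 12 largest rises and 12 largest falls among called genes with a mean of 5 CPM or more in their higher group and 80% of 25 library pairs ordered alike, up to 4 called members of each of 33 lists, and 27 anchor genes. Genes with only a LOC name were passed over, 3 among the largest rises and 1 among the largest falls. Other list members named were picked after their values were seen. Members and lists were chosen with earlier results of these data known. With no genome of the files' build or sequence tables used here, coordinates, sequences and promoter motifs are not reported. A few named genes are not reported here.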

Additional observations from a re-analysis of the deposited data

Results flagged for a closer look

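In 162 groups of 5 values (levels of some of the named genes, not all, and list scores in P-SF and in NP-SF), 27 held 1 library whose distance from the rest was large against the range of the group. Chance flags about 1 in 20 such groups, and these groups share the same 10 libraries. P-SF replicate 5 accounted for 17 of them and NP-SF replicate 5 for 8.

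P-SF replicate 5 was highest for CLEC4F at 62.2 CPM (others 6.64 to 12.7), TAP1 at 248.9 CPM (others 116.6 to 133.3), CTSS at 416.2 CPM (others 227.6 to 268.6) and C4A at 841.4 CPM (others 306.1 to 381.6). It was highest for IDO1 at 421.2 CPM (others 37.0 to 66.6), WARS at 302.2 CPM (others 122.6 to 148.8), PLIN2 at 141.3 CPM (others 72.1 to 86.9), FABP3 at 256.7 CPM (others 38.3 to 59.6) and PLAC8 at 146.6 CPM (others 53.0 to 66.6). It was lowest for MUC16 at 35.98 CPM (others 100.4 to 137.8). Among list scores, each the mean log2(CPM + 1) of the list's tested genes, the same library was highest for interferon signalling at 6.58, cell death and lysosome at 5.86, uterine secretions at 6.08, glycolysis at 6.34 and endoplasmic reticulum chaperones and stress genes at 6.32. It was lowest for the WNT pathway at 4.07 and for ciliated cell markers at 3.09.

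NP-SF replicate 5 was highest for ISG15 at 62.5 CPM (others 4.66 to 7.82), RSAD2 at 115.6 CPM (others 13.1 to 21.1), IFIT3 at 22.3 CPM (others 9.31 to 11.1), IFIH1 at 66.0 CPM (others 36.8 to 42.3) and CLEC4F at 1.35 CPM (others 0 to 0.0920). Its scores were highest for antiviral effectors at 5.38, ISG15 conjugation at 5.49 and the lipid list at 4.60. IFIT1, which was not among the genes checked, was at 173.5 CPM in the same library (others 19.4 to 29.8). The remaining flagged values were B2M in NP-SF replicate 3, lowest at 453.6 CPM (others 488.5 to 498.0), and the score of the IGF axis in NP-SF replicate 4, lowest at 5.23.

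CILP is set apart by a difference between the fertility classes: its change with pregnancy in SF heifers exceeded that in HF heifers by 1.38 ± 0.22 on the log2 scale (adjusted p = 0.041, edgeR's quasi-likelihood test, Benjamini-Hochberg adjustment). The call was lost without any one of the P-SF replicates 1 to 4 or of the NP-SF replicates, with limma-voom and with no filter on low counts.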

How the results depend on the processing

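No paired analysis was possible because the labels give these endometrium samples no shared replicate numbers, and each library comes from a different animal. The number of genes called for P-SF against NP-SF was 798 and ran from 425 (without P-SF replicate 5) to 845 (without P-SF replicate 3) when 1 library was left out. It was 459 without P-SF replicate 5 and NP-SF replicate 5 together and 1212 with DESeq2 (848 higher and 364 lower), and between 607 and 867 under the other alternatives. The cause of these shifts was not tested. For the difference between SF and HF heifers, 1 gene was called in the reported fit, 3 with DESeq2, 0 with limma-voom, with or without library weights, 0 with no filter on low counts, and 0 to 1 with a library left out. Of the genes followed through all 19 alternatives, 86 were called and 13 not, and 63 of the 86 were called under each of them. The other 23 lost their call under at least 1. PGR, not called, was at -0.022 without those 2 libraries against 0.16 ± 0.26 in the reported fit, the 1 value among 1881 that changed sign. DESeq2 called more list members than edgeR, with 6 against 1 for cholesterol and fatty acid synthesis, 8 against 5 for uterine secretions, 3 against 1 for immune cell markers, 2 against 1 for epithelial markers, 4 against 1 lower for collagens and 2 against 1 lower for other matrix genes. No promoter sequence was used here. Depth of 20.2 to 25.7 M reads limits genes near the filter, such as CLEC4F in NP-SF.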

Other observations

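Called genes outside the lists formed further sets by known role, put together after their values were seen and therefore given as a description with no test. Nuclear proteins of the SP100 family rose, SP110 by 2.27 ± 0.22, SP140 by 1.97 ± 0.20 and SP140L by 2.27 ± 0.25, beside the cap methyltransferases CMTR1 (1.26 ± 0.12) and CMTR2 (1.27 ± 0.15), which mark the start of messenger RNA as the cell's own. SLFN11, a schlafen protein that restricts viral translation, rose by 4.43 ± 0.53, and EPSTI1, an interferon target, by 3.60 ± 0.31. KIF5C, a kinesin motor, rose by 4.26 ± 0.49, ATP8B4, a phospholipid flippase, by 3.63 ± 0.44, and FOXS1, a forkhead factor, by 2.93 ± 0.33. Without P-SF replicate 5 the change was 3.52 for KIF5C and 2.95 for ATP8B4. KIF5C was at 5.87, 7.13, 3.30, 5.89 and 4.01 CPM in NP-SF and 81.2, 49.7, 46.5, 63.4 and 260.4 CPM in P-SF, so that the groups lay apart in a gene known mainly from neurons. Of the complex that builds linear ubiquitin chains, RNF31 (0.68 ± 0.10) and RBCK1 (0.95 ± 0.14) rose, while SHARPIN was at 0.052 ± 0.11 and the enzyme OTULIN, which takes such chains apart, at -0.0095 ± 0.07.

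Some of the called genes encode surface proteins of phagocytes: SIGLEC1, the sialic acid receptor of macrophages, by 3.01 ± 0.35, the antibody receptors FCGR1A by 1.66 ± 0.28 and FCGR3A by 1.25 ± 0.24, their signalling chain FCER1G by 1.02 ± 0.22, and CD53 by 1.51 ± 0.27. They were picked among called genes. Of 25 tested immune cell markers 1 was called, a share of 4.0% beside 4.07% of all genes tested. The monocyte marker CD14 was at 0.28 ± 0.22 and not called. SIGLEC1 was at 3.72, 1.84, 3.26, 1.96 and 3.19 CPM in NP-SF and 18.2, 17.6, 15.96, 15.97 and 45.3 CPM in P-SF. Called genes of stratified epithelium were highest in P-SF replicate 5. KRT17, a basal keratin, was at 11.67, 14.9, 12.9, 3.67 and 39.2 CPM in P-SF and 0.717, 1.24, 0.652, 1.28 and 6.48 CPM in NP-SF, and GJB2, a gap junction protein, at 2.06, 5.01, 2.30, 1.21 and 36.8 and 1.03, 0.782, 1.53, 1.02 and 1.40 CPM. Both overlapped between the groups, and among the 10 fits with 1 library left out KRT17 lost its call in 1 and GJB2 in 4. AGRN, the basement membrane proteoglycan agrin, rose by 1.69 ± 0.22, whereas HSPG2, perlecan, fell by 0.42 ± 0.11 and lost its call in 5 of these 10 fits. Other aminoacyl-tRNA synthetases besides WARS were called with smaller changes, YARS at 0.83 ± 0.18, GARS at 0.53 ± 0.14, SARS at 0.43 ± 0.10 and RARS at 0.34 ± 0.07. GARS overlapped between the groups and lost its call in 5 of the 10 fits, and SARS in 1.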
